A study of Mus musculus with 54 samples.

Results

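The nephron segment markers described here are 9 of the 54232 genes in the deposited count tables. They were chosen by symbol because each marks 1 stretch of the nephron, the tube that makes urine. Nphs1 (ENSMUSG00000006649) marks podocytes, and Lrp2 (ENSMUSG00000027070), Slc5a2 (ENSMUSG00000030781) and Slc5a12 (ENSMUSG00000041644) mark the proximal tubule. Umod (ENSMUSG00000030963) and Slc12a1 (ENSMUSG00000027202) mark the thick ascending limb, and Slc12a3 (ENSMUSG00000031766) marks the distal convoluted tubule. Aqp2 (ENSMUSG00000023013) and Aqp3 (ENSMUSG00000028435) mark the principal cells of the collecting duct. Each symbol matched an Ensembl gene, and all 9 were among the 20698 genes that passed the filter on low counts in the kidney.

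Blood is filtered in the glomerulus through the slit diaphragm that podocytes hold between their foot processes. The filtrate then runs through the proximal tubule, the loop of Henle, the distal convoluted tubule and the collecting duct, and each segment recovers salt, sugar, protein or water with its own transporters and channels. Gliflozins, loop diuretics and thiazides block the products of Slc5a2, Slc12a1 and Slc12a3, respectively.

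The kidneys came from male BL6 mice aged about 20 months that received Cmpd60, a benzamide that selectively inhibits histone deacetylases 1 and 2, or vehicle. Injections were intraperitoneal and daily for 14 days, with 22.5 mg/kg Cmpd60 in 6 mice and the vehicle of DMSO, PEG400 and saline in 5 mice, and no other allele or agent was given in the labels. Brains of 6 Cmpd60 and 6 vehicle mice and hearts of 5 Cmpd60 and 6 vehicle mice of the same age, strain and treatment served for comparison, and 20 brains of a dementia cohort aged 6 to 7 months (APPSWE transgenic or control mice, with Cmpd60 or vehicle) were used only for levels. RNA was made from homogenised tissue, so each kidney value is a mixture of all segments and other cells. Kidney groups follow the sample titles and source names, which are numbered 45 to 49 for vehicle and 50 to 55 for Cmpd60. The column headings of the study's own kidney table use the same numbers for the same groups. The treatment field of the labels gives the opposite, and with it every difference between the kidney groups below would change its sign.

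The kidney libraries held between 25164965 and 39171083 counts on genes. Levels are counts scaled to library size (CPM) with the trimmed mean of M-values (TMM), and a count of 0 allows up to 0.119 CPM in the smallest kidney library (3 counts, counting error only). Library 55, of a Cmpd60 mouse, stood apart from the other 10. It had the fewest genes detected, 18512 where the others had 19385 to 23062, although its 27879864 counts on genes were the median of the kidneys. Whether library quality bears on its values was not tested. Library 55 held 582 CPM of Havcr1, which encodes the injury marker KIM-1, where the others held 9.51 to 185 CPM. It held 16229 CPM of Spp1 (osteopontin), where the others held 931 to 4831 CPM. Lcn2, which encodes the injury marker NGAL, stood at 295 CPM in this library and at 11.2 to 143 CPM in the others. All 7 genes of the tubule injury list were detected and had a log2 fold change above 0, where 50.0% of all genes were below 0. Their median was 1.28, and it was 0.49 without library 55, where Vcam1 was at -0.12. Lcn2 and Spp1 had an unadjusted p below 0.05 in edgeR, where 5.71% of all genes were higher at that threshold. Neither passed after adjustment (edgeR adjusted p = 0.183 and 0.334). Without library 55 the unadjusted p was 0.00990 in Lcn2 and 0.0902 in Spp1 (edgeR). The summed level of the 7 genes ranged from 1608 to 19148 CPM with Cmpd60 and from 1365 to 4857 CPM with vehicle. In a comparison chosen after these values were seen, the mean log2 CPM of the 7 injury genes was set against each marker, as deviations from the group means over the 11 kidneys. Pearson's r was below 0 for all 9 markers, from -0.85 in Slc12a3 (permutation test within groups, p = 0.00173, adjusted over the 9 markers 0.0156) and -0.82 in Slc12a1 (permutation p = 0.00427, adjusted 0.0192) to -0.31 in Aqp2 (permutation p = 0.463, adjusted 0.463). By r, 7 markers passed after adjustment, and by Spearman's rho 0 did, with rho at -0.80 in Slc12a3 (permutation p = 0.00788, adjusted 0.0709). Library 55 had the highest mean of the injury genes (8.40 log2 CPM), and these p-values include it. Without libraries 53 and 55, the farthest from the median of the injury genes, r ran from -0.71 in Slc12a3 to -0.10 in Aqp2. A direction between injury genes and markers was not tested. Fold changes of the markers are given below also without library 55.

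None of the 9 markers differed between Cmpd60 and vehicle kidneys after adjustment over all genes (edgeR quasi-likelihood test with Benjamini-Hochberg adjustment). In this comparison 62 of 20698 genes, 0.300%, had an adjusted p below 0.05. At an unadjusted p below 0.05 stood 1 marker, Slc5a2, which was lower, as against 11.3% of all genes in either direction. The log2 fold change was below 0 in 6 markers and above 0 in 3, with a median of -0.14, where 50.0% of all genes were below 0 and the median of all genes was -8.0e-05. The ranges of the groups overlapped in all 9 markers, and 2.30% of all genes had groups that did not overlap. Since whole tissue was measured, fewer cells of a segment and less RNA per cell of it cannot be told apart in any of these values. Library 55 had the lowest level of all 11 kidneys in 8 of the 9 markers, the exception being Aqp2. Without library 55, no marker had a p below 0.05, and the signs were kept except in Aqp3, whose value was then 0.01. When library 52 was left out instead, Slc5a2, Slc5a12 and Slc12a1 had an unadjusted p below 0.05 in edgeR. In that fit 14.6% of all genes did, and none of the 9 markers passed after adjustment.

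**Figure D1:**
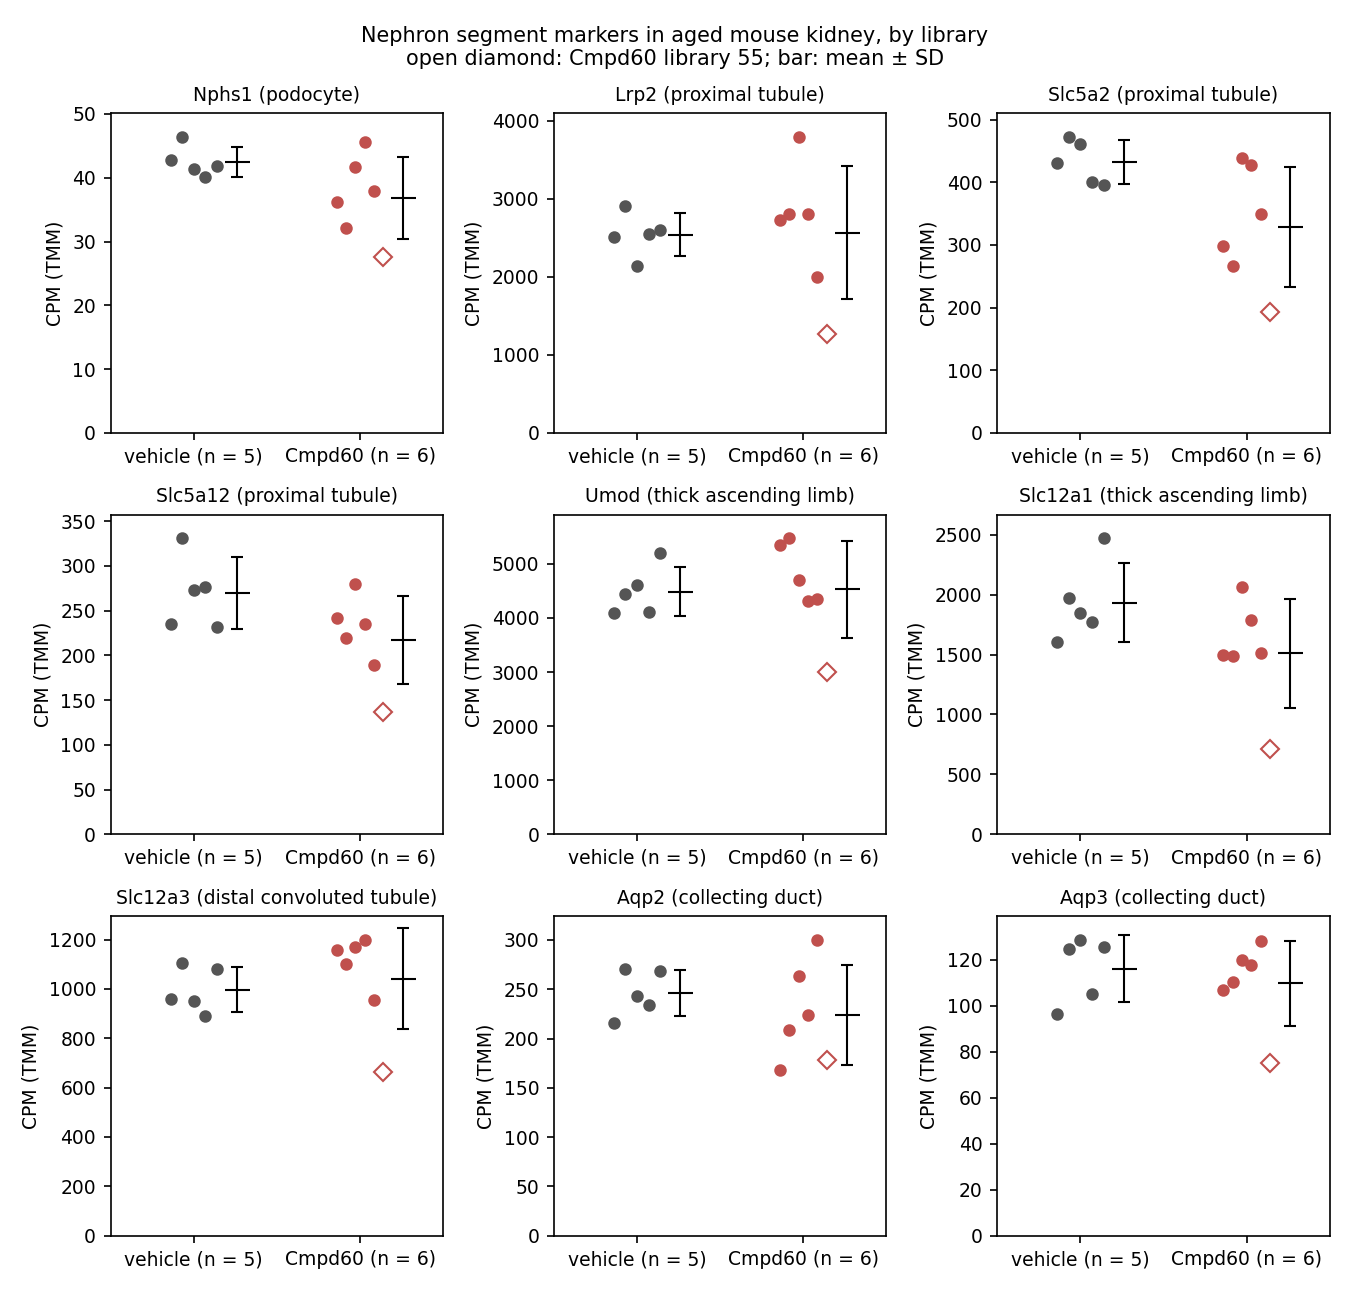
Level of each of the 9 markers (CPM, vertical axis from 0) in the 5 vehicle and 6 Cmpd60 kidneys, 1 point per library, with the mean and SD beside each group. The groups overlap in every panel, and the open diamond, Cmpd60 library 55, is the lowest point in every panel but that of Aqp2.

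In the glomerulus, Nphs1 encodes nephrin, the protein that bridges the slit diaphragm. It stood at 42.8, 46.4, 41.4, 40.1 and 41.8 CPM in the vehicle kidneys 45 to 49. In the Cmpd60 kidneys it ranged from 27.5 CPM in library 55 to 45.5 CPM in library 53, with a median of 37.0 CPM. The vehicle kidneys lay close together and 4 of the 6 Cmpd60 kidneys lay below all of them, but libraries 52 and 53 did not. Nphs1 averaged 42.5 ± 2.36 CPM (SD, n = 5) with vehicle, as against 36.8 ± 6.46 CPM (SD, n = 6) in the Cmpd60 group. This gave a log2 fold change of -0.21 (standard error, SE, 0.11, edgeR adjusted p = 0.504), and of -0.13 without library 55.

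The proximal tubule is represented by a receptor and a pair of cotransporters. Lrp2 encodes megalin, the receptor by which this segment takes up filtered protein. It stood at 2512, 2915, 2145, 2545 and 2600.2 CPM in the vehicle kidneys and between 1274 and 3795 CPM, with a median of 2768 CPM, in the Cmpd60 kidneys. Both the highest value (library 52) and the lowest (library 55) of Lrp2 were in Cmpd60 kidneys, and the coefficient of variation was 33.2% with Cmpd60 and 10.8% with vehicle. Between the groups Lrp2 had a log2 fold change of 0.01 (SE 0.21, edgeR adjusted p = 0.988), with a 95% confidence interval from -0.43 to 0.46. It was 0.15 without library 55 and -0.13 without library 52.

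Slc5a2 encodes SGLT2, which recovers most filtered glucose in the early proximal tubule. It stood at 431, 472, 461, 400.02 and 396 CPM in the vehicle kidneys 45 to 49. In the Cmpd60 kidneys 50 to 55 it stood at 298, 267, 439, 428, 349 and 192 CPM. Libraries 50, 51, 54 and 55 lay below every vehicle kidney, while libraries 52 and 53 lay within the vehicle range. Slc5a2 averaged 432 ± 34.6 CPM (SD, n = 5) with vehicle, as against 329 ± 95.7 CPM (SD, n = 6) in the Cmpd60 group. Its log2 fold change was -0.39, a ratio of 0.761 with a 95% confidence interval from 0.589 to 0.983. This was the lowest p of the 9 (unadjusted p = 0.0380, adjusted p = 0.408, edgeR quasi-likelihood test), and the exact permutation test over libraries gave a two-sided p of 0.0563. Without library 55 the log2 fold change was -0.28 (unadjusted p = 0.0510), and without library 52 it was -0.49 (unadjusted p = 0.0104, adjusted p = 0.200).

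Slc5a12 encodes a sodium-coupled lactate transporter of the early proximal tubule. It ranged from 232 to 331 CPM in the vehicle kidneys and from 136 to 280 CPM in the Cmpd60 kidneys, with medians of 273 and 227 CPM. In this gene 3 of the 6 Cmpd60 kidneys lay below all vehicle kidneys. For Slc5a12 the log2 fold change came to -0.31 (SE 0.15, edgeR adjusted p = 0.467), and -0.21 without library 55. Without library 52, it was -0.40 (edgeR, unadjusted p = 0.0191, adjusted p = 0.241).

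The thick ascending limb markers differed from each other in their values. Umod encodes uromodulin, the most abundant protein of normal urine. It stood at 4083, 4436, 4601, 4110.3 and 5192 CPM in the vehicle kidneys and at 5352, 5471, 4694, 4309, 4351 and 3007 CPM in the Cmpd60 kidneys 50 to 55. The Cmpd60 kidneys thus held both the highest pair, libraries 50 and 51, and the lowest. Umod had a log2 fold change of 0.01 (SE 0.15, edgeR adjusted p = 0.981), with a 95% confidence interval from -0.30 to 0.33, and of 0.11 without library 55.

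Slc12a1 encodes NKCC2, the cotransporter that takes up sodium, potassium and chloride in the same segment. It stood at 1602, 1974, 1844, 1776 and 2470 CPM in the vehicle kidneys and at 1499, 1489.9, 2065, 1786, 1516 and 708 CPM in the Cmpd60 kidneys 50 to 55. The same 4 libraries that were lowest in Slc5a2 (50, 51, 54 and 55) lay below every vehicle kidney in Slc12a1. Slc12a1 averaged 1933 ± 329 CPM (SD, n = 5) with vehicle, as against 1511 ± 453 CPM (SD, n = 6) in the Cmpd60 group. Its log2 fold change came to -0.36 (SE 0.21, edgeR adjusted p = 0.539), and -0.21 without library 55. Without library 52 it was -0.47 (unadjusted p = 0.0383, adjusted p = 0.312).

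In the distal convoluted tubule, Slc12a3 encodes NCC, the sodium chloride cotransporter. It stood at 960.5, 1105, 950.4, 892 and 1079 CPM in the vehicle kidneys and at 1159, 1099, 1170.1, 1199, 954 and 664 CPM in the Cmpd60 kidneys 50 to 55. In Slc12a3, libraries 50, 52 and 53 lay above every vehicle kidney and library 55 below. This amounted to a log2 fold change of 0.06 (SE 0.14, edgeR adjusted p = 0.909), and 0.16 without library 55 (unadjusted p = 0.0917).

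In the collecting duct, Aqp2 encodes the water channel that vasopressin inserts into the apical membrane, and Aqp3 a water and glycerol channel of the basolateral membrane. Aqp2 ranged from 216 to 270.5 CPM in the vehicle kidneys and from 169 to 300.2 CPM in the Cmpd60 kidneys. Here library 50 was the lowest and library 54 the highest of all 11. The log2 fold change of Aqp2 was -0.14 (SE 0.14, edgeR adjusted p = 0.747), and -0.08 without library 55. Aqp3 ranged from 96.3 to 129 CPM with vehicle and from 75.1 to 128 CPM with Cmpd60, with a log2 fold change of -0.08 (SE 0.13, edgeR adjusted p = 0.853) that became 0.01 without library 55. For both water channels the 95% confidence interval held 0, from -0.43 to 0.16 in Aqp2 and from -0.35 to 0.19 in Aqp3.

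**Figure D2:**
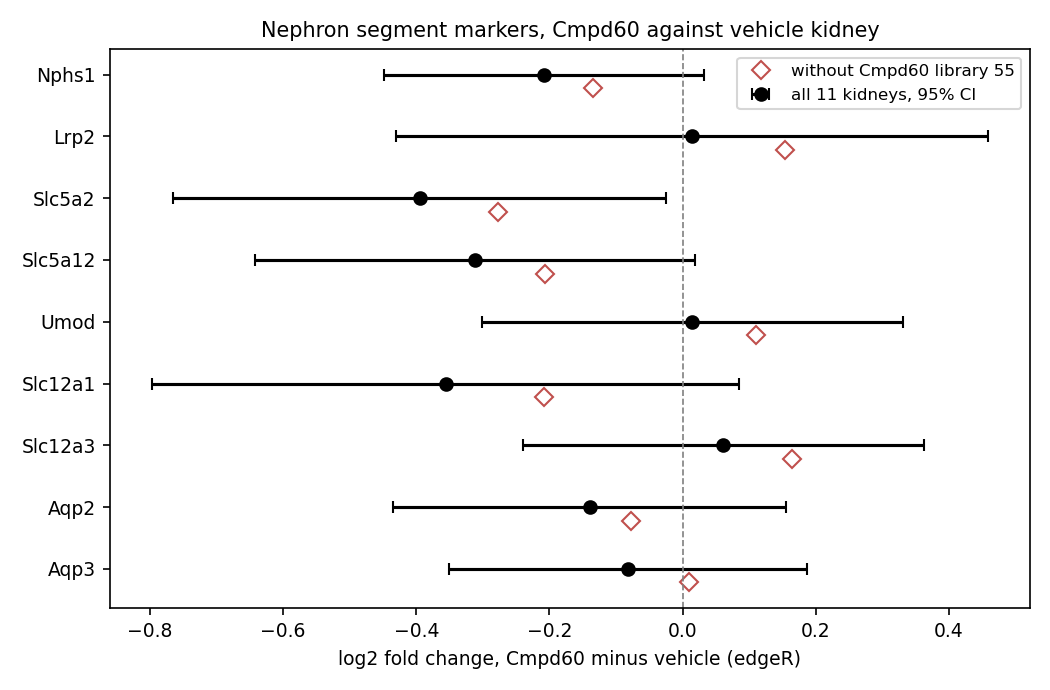
Log2 fold change of Cmpd60 over vehicle kidney (horizontal axis, edgeR) for the 9 markers, with 95% confidence intervals over all 11 kidneys as bars and the estimate without library 55 as open diamonds. The interval of Slc5a2, from -0.76 to -0.02, is the one that leaves out 0, and every diamond lies to the right of its filled point.

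Ratios between markers were compared within each library, which removes the scaling of the library. Of the 4 ratios, those within the proximal tubule and within the collecting duct did not differ beyond the spread of the kidneys. The log2 ratio of Slc5a2 to Slc5a12 differed by -0.11 (two-sided exact permutation test, p = 0.403, adjusted over the 4 ratios 0.537), and that of Aqp2 to Aqp3 by -0.07 (p = 0.543 in the same exact test, adjusted 0.543). The ratio of the loop diuretic target to the thiazide target was lower with Cmpd60. The 4 ratios were chosen with earlier results of these data known, so their p-values serve as description only. The log2 ratio of Slc12a1 to Slc12a3 stood at 0.74, 0.84, 0.96, 0.99 and 1.19 in the vehicle kidneys and at 0.37, 0.44, 0.82, 0.57, 0.67 and 0.09 in the Cmpd60 kidneys 50 to 55. In this ratio 5 of the 6 Cmpd60 kidneys lay below all vehicle kidneys, and library 52 lay within their range. The means were 0.49 ± 0.25 (SD, n = 6) with Cmpd60 and 0.94 ± 0.17 (SD, n = 5) with vehicle. The difference was -0.45 on the log2 scale (two-sided exact permutation test, p = 0.00866, adjusted over the 4 ratios 0.0346). It kept its sign when each library was left out, between -0.51 and -0.37. The adjusted p was 0.0317 without library 52, and between 0.0571 and 0.0952 without any other single library, vehicle or Cmpd60, so the call did not hold there. Neither gene alone had an unadjusted p below 0.05 in the edgeR fit.

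Within the thick ascending limb, the log2 ratio of Umod to Slc12a1 was 1.63 ± 0.36 (SD, n = 6) with Cmpd60 and 1.22 ± 0.11 (SD, n = 5) with vehicle. In 4 of the 6 Cmpd60 kidneys it was above all vehicle kidneys. The difference of 0.41 had an exact permutation p of 0.0498 and did not pass after adjustment over the 4 ratios (0.0996). The adjusted value was 0.0476 without library 52. Library 55 held the lowest Slc12a1 to Slc12a3 ratio and the highest Umod to Slc12a1 ratio of all kidneys. Without this library the difference of the latter was 0.31 (exact permutation test, adjusted p = 0.175).

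**Figure D3:**
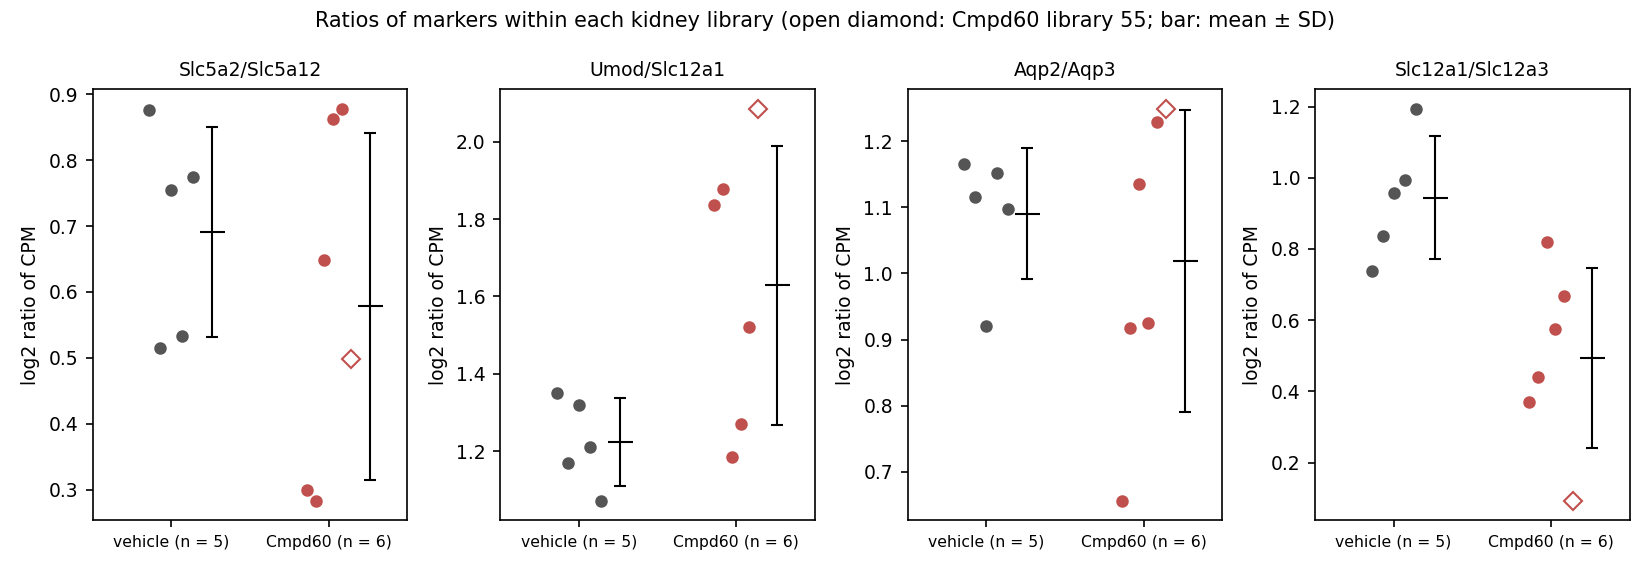
Log2 ratio of CPM between markers of the same library (vertical axis) for the 4 ratios, in the 5 vehicle and 6 Cmpd60 kidneys, with the mean and SD beside the points and library 55 as an open diamond. In the panel of Slc12a1 to Slc12a3, 5 of the 6 Cmpd60 points lie below the lowest vehicle point at 0.74.

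Other markers of the same segments were read from 9 lists, the markers included, which hold 72 genes. Of these, 71 were tested and 0 had an adjusted p below 0.05 in edgeR. With DESeq2 the number was 5, of which 4 were higher and 1 lower with Cmpd60, beside 2.07% of all genes. At an unadjusted p below 0.05 in edgeR stood 16 of the genes (22.5%, beside 11.3% of all genes), 6 of them with a higher level in the Cmpd60 kidneys (5.71% of all genes) and 10 with a lower level (5.63% of all genes). Without library 55 the balance turned, with 10 higher (5.65% of all genes) and 8 lower (5.34% of all genes). Over all 11 kidneys, the 10 lower genes were in lists of the proximal tubule, the thick ascending limb and the distal tubule, and 5 of the 6 higher genes were in lists of the collecting duct. Whether the segments differ from each other was not tested.

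Of the 20 proximal tubule genes, 7 had an unadjusted p below 0.05, all lower with Cmpd60 (11.3% of all genes passed it in either direction). In 5 of the 20 the log2 fold change was above 0, 2 of them in the late segment, Slc5a1 at 0.19 and Slc6a18 at 0.18, which are named after their values were seen. The median log2 fold change was -0.14 over the 6 genes of endocytosis, -0.28 over the 9 of the early segment and -0.48 over the 5 of the late segment, and -0.05, -0.18 and -0.41 without library 55. Cyp7b1, an oxysterol hydroxylase, stood at 157 to 196 CPM in the vehicle kidneys and at 43.6 to 139.8 CPM in the Cmpd60 kidneys, with no overlap. Cyp7b1 was at -1.02 on the log2 fold change scale (SE 0.25, adjusted p = 0.108 in edgeR and 0.00414 in DESeq2). Slc7a13, an amino acid transporter of the late segment, had a log2 fold change of -0.66 and Slc34a1, the main phosphate cotransporter of the early segment, one of -0.48 (edgeR adjusted p = 0.336 and 0.359). In the endocytosis list, Lrpap1, Amn and Clcn5 were at -0.33, -0.28 and -0.27 (edgeR adjusted p = 0.286, 0.264 and 0.475). Lrp2, Cubn and Dab2 of this list were at 0.01, -0.01 and 0.01.

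In the thick ascending limb, the median over 11 genes was 0.0015. Egf, the precursor of epidermal growth factor that this segment and the distal tubule release into urine, was the gene of largest change in this list. It stood at 1773 to 2414 CPM in the vehicle kidneys and at 828, 663, 1635, 1701, 1044 and 297 CPM in the Cmpd60 kidneys 50 to 55, with no overlap. For Egf the log2 fold change came to -0.96 (SE 0.32, edgeR adjusted p = 0.262), and -0.76 (adjusted p = 0.174) without library 55. Cldn10, a claudin of the tight junction, was at -0.25 (edgeR adjusted p = 0.316). Over the 9 genes of the distal convoluted and connecting tubule the median was -0.06, and Pvalb, parvalbumin of the early distal convoluted tubule, was at 3.65 CPM with Cmpd60 and 7.29 CPM with vehicle (edgeR adjusted p = 0.403).

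In the collecting duct, Aqp2 and Aqp3 were not the genes that differed most. Aqp4, the other basolateral water channel of principal cells, stood at 53.2 to 99.5 CPM in the vehicle kidneys and at 153, 152, 148.6, 116, 93.4 and 78.1 CPM in the Cmpd60 kidneys 50 to 55. Libraries 54 and 55 lay within the vehicle range of Aqp4 and the other 4 above it. Aqp4 had a log2 fold change of 0.83 (SE 0.19, adjusted p = 0.0950 in edgeR and 0.00272 in DESeq2), and it passed without library 55 (0.94, adjusted p = 0.0267). Rhcg, an ammonia channel found in intercalated and principal cells, stood at 68.0 to 81.4 CPM in the vehicle kidneys and at 92.9 to 114 CPM in the Cmpd60 kidneys, with no overlap. For Rhcg the value came to 0.42 (SE 0.08, adjusted p = 0.0571 in edgeR and 0.000319 in DESeq2), and it passed without library 55 (adjusted p = 0.0385). When any library other than 52 or 55 was left out, no gene of the 9 segment lists had an adjusted p below 0.05 in edgeR. Aqp6, a channel of intracellular vesicles in intercalated cells, had a log2 fold change of 0.57 (adjusted p = 0.0852 in edgeR and 0.00443 in DESeq2). Hsd11b2, which shields the mineralocorticoid receptor from glucocorticoids, and Scnn1b, a subunit of the epithelial sodium channel, were at 0.28 and 0.25 (edgeR adjusted p = 0.280 and 0.277). Of the other subunits of this channel, Scnn1a was at 0.12 and Scnn1g at -0.02 (edgeR adjusted p = 0.634 and 0.941). In 5 of the 10 principal cell genes the log2 fold change was below 0. The medians over the 10 principal cell and the 8 intercalated cell genes tested were 0.05 and 0.15. Among podocyte genes (median 0.02 over 9), Cdkn1c, a cell cycle inhibitor, was at 0.36 (adjusted p = 0.144 in edgeR and 0.0319 in DESeq2). The thin limb and inner medulla list had a median of 0.17 over 4 genes, with 0 below an unadjusted p of 0.05 in edgeR.

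**Figure D4:**
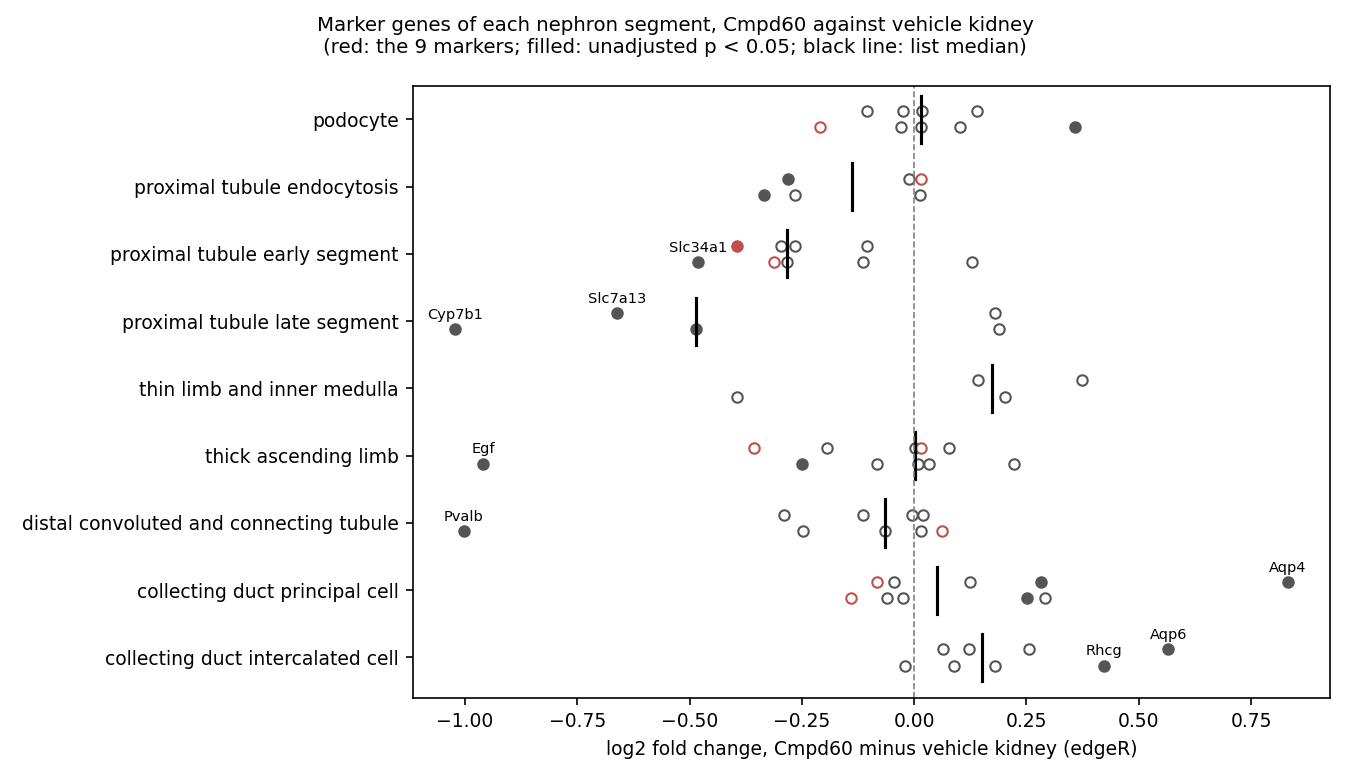
Log2 fold change of Cmpd60 over vehicle kidney (horizontal axis, edgeR) for the 71 marker genes tested, by segment, with the 9 markers in red, filled points for an unadjusted p below 0.05 and a black line at each list's median. The filled points of the proximal tubule, thick limb and distal tubule lists lie below 0 and those of the podocyte and collecting duct lists above 0.

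Regulators of these transporters were looked at in a further pair of lists. Of 15 regulators of salt and water transport, and of 15 transcription factors of the nephron, 1 each had an unadjusted p below 0.05 in edgeR, where 11.3% of all genes did, so the shares were not above those of all genes. The regulator was Klhl3, the adaptor of the ubiquitin ligase that limits WNK kinases upstream of NCC, with a log2 fold change of -0.46 (adjusted p = 0.318). The median over the 15 regulators was 0.03. The transcription factor was Irx1, with a log2 fold change of -0.32 (edgeR adjusted p = 0.383), and the median over the 15 was -0.07. Of the 13 circadian clock genes, Per2 was at 0.71 (edgeR adjusted p = 0.400) and the median was 0.07.

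Markers of the other cells that a kidney sample can hold did not pass the adjusted test in any list. The median log2 fold change was 0.04 over 8 genes of endothelium, 0.15 over 9 of stroma and vessel wall, 0.05 over 8 of immune cells and 0.46 over 3 of red blood cells. It was 0.16 over 5 genes of urothelium and 0.06 over 5 of fat. Without library 55, the median was 0.0027 for stroma and vessel wall and 0.31 for fat. The summed level of the stromal genes ranged from 579 to 987 CPM with Cmpd60 and from 502 to 758 CPM with vehicle, and that of the immune genes from 202 to 589 CPM and from 217 to 375 CPM. Of 7 adrenal genes, 2 were at 0 in every kidney and 2 were tested, with a summed level of at most 2.85 CPM over the list. The median of the 2 tested was 0.56, with both above 0, and 0.53 without library 55. The B cell gene Cd79a was the 1 gene of these with an unadjusted p below 0.05 (log2 fold change -1.12, edgeR adjusted p = 0.317) at 1.47 CPM with Cmpd60 and 3.20 CPM with vehicle. The part of these cells in the marker values was not tested.

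Levels of the 9 markers can be ordered only per length, as CPM per kilobase of exon (exon lengths of GENCODE vM1, an older gene set than the counts may use). In the vehicle kidneys Umod led with 1814 ± 183 CPM per kilobase (SD, n = 5). Slc12a1 and Slc12a3 followed with 335 ± 57.0 and 302 ± 27.4, and their ranges overlapped. Then came Aqp2 (174 ± 16.5), Lrp2 (152 ± 16.4) and Slc5a2 (149.2 ± 12.0). The range of Lrp2 overlapped with those of Aqp2 and Slc5a2, although Aqp2 lay above Lrp2 in each of the 5 vehicle kidneys. Slc5a2 did not overlap with Slc5a12, the next in order. Slc5a12 (66.3 ± 9.87) and Aqp3 (63.5 ± 7.91) overlapped, and Nphs1 was last with 8.05 ± 0.45 CPM per kilobase. With Cmpd60 the mean of Slc12a3 (315) lay above that of Slc12a1 (262) on this scale, whose spread was not computed for the Cmpd60 kidneys. This order rests on the exon lengths, since in CPM Slc12a1 lay above Slc12a3 in every kidney (lowest log2 ratio 0.09).

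The labelled tissue was checked against the aged brain and heart, each scaled within its own tissue. In all 9 markers every kidney lay above every brain and every heart library, as did 19.3% and 24.4% of the 27105 genes counted in aged tissue. The gap was smallest for Nphs1 in the brain, where the lowest kidney was 12.8 times the highest brain at 2.15 CPM. Aqp3 came next, at 34.3 times the highest heart and 75.7 times the highest brain. Umod had no count in any of the 12 brains and Nphs1 none in any of the 11 hearts. Lrp2, expressed in the choroid plexus among other epithelia, stood at 0.608 to 1.40 CPM in the brains. In the 20 brains of the dementia cohort the highest level of any marker was 5.38 CPM, in Nphs1.

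Traces in the brain and heart did not differ with Cmpd60 after adjustment. Of the 6 markers tested in the brain, 0 had an adjusted p below 0.05 (0.0205% of all genes) and 2 had an unadjusted p below 0.05 (13.8% of all genes) in edgeR. These were Aqp2 (log2 fold change 1.93 at 0 to 8 counts per library) and Slc12a3 (0.77 at 5 to 29 counts). Of the 7 markers tested in the heart, 0 passed (1.18% of all genes) and 0 had an unadjusted p below 0.05 (13.5% of all genes) in edgeR.

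**Figure D5:**
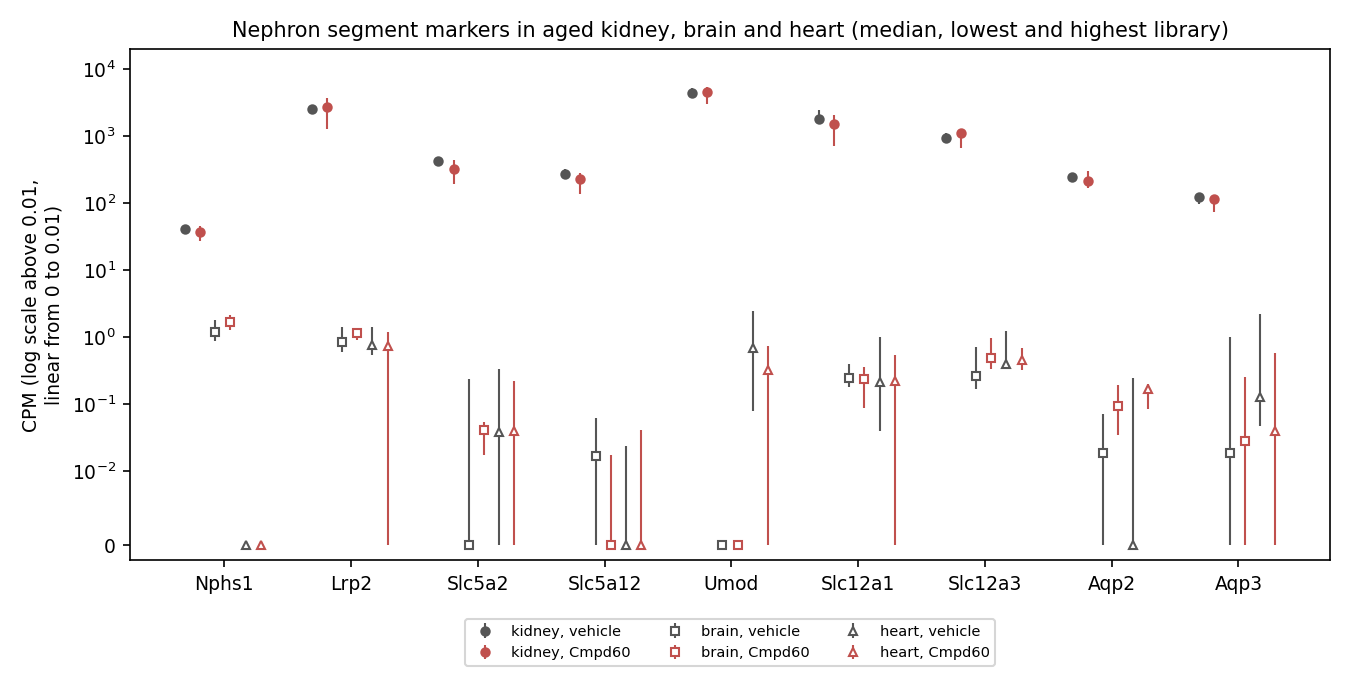
Level of the 9 markers (CPM, log axis above 0.01 and linear below it) in aged kidney, brain and heart, as the median of each group with bars to its lowest and highest library. All kidney bars lie above all brain and heart bars, with Nphs1 and its brain libraries closest.

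How the markers varied together was read from deviations from the group mean over the 11 kidneys (log2 CPM). All 36 pairs had a positive Pearson correlation, from 0.18 to 0.96 with a median of 0.73. In a permutation test within groups, 11 pairs passed after adjustment over the 36 by Pearson's r and 0 by Spearman's rho. Without library 55 the median was 0.33, 8 pairs were below 0 and 0 passed. The closest pair was Nphs1 and Slc5a2 (r = 0.96, permutation test, adjusted p = 0.0137, and rho = 0.91, adjusted p = 0.0691), with r = 0.91 without library 55 (permutation test, adjusted p = 0.0682) and 0.90 without libraries 53 and 55. Aqp2 and Aqp3 had r = 0.73, and 0.72 without library 55 (permutation test, adjusted p = 0.0682). Umod and Slc5a2 had r = 0.40, and -0.61 without library 55.

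The genes most like each marker were named by the same correlation over 14427 genes, with no test. Nphs1 and Slc5a2 shared the endothelin receptor gene Ednrb among their closest 3 (r = 0.97 and 0.98), and Nphs1 also had Slc5a2 and the phosphate cotransporter gene Slc34a3 (r = 0.96 for both). Umod had Gp2, a gene of the same protein family, among its closest (r = 0.96, and 0.88 without library 55), at 1.64 to 5.18 CPM. Slc12a1 had Pcsk6, Tmem207 and Dnajc28 (r = 0.98 for each), and Slc12a3 had Gab1, Slit2 and Enpp1 (r = 0.97 to 0.98). For Lrp2 these were Traf6, Birc6 and Ralgapb (r = 0.99 for each), and for Slc5a12 Ubl3, Fgd4 and Sgk3 (r = 0.96 each). Aqp3 had Tbc1d24, the pseudogene Hdac1-ps, whose reads can be shared with Hdac1, and BC060267 (r = 0.94 to 0.97). The closest of Aqp2 were Ints7, Nfix and Cck, at r = 0.90 to 0.91.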

How the data were processed

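The authors trimmed reads with Trimmomatic 0.32, aligned them with HISAT2 2.1.0 and counted them per Ensembl gene with HTSeq 0.11.0, and deposited raw counts, without normalization. The genome build is not given in the sources used here. Libraries were stranded (oligo-dT selected mRNA). The 5 summary lines of each table (16.6% to 20.8% of kidney counts) were left out. The counts of the 11 kidneys were scaled by TMM and tested with edgeR 4.0.16 (quasi-likelihood) in R 4.3.3, keeping genes that exceeded 2 counts in 3 or more libraries, with Benjamini-Hochberg adjustment. Brain and heart were fitted separately. Log2 CPM used a prior count of 2, and correlations 100000 permutations. Alternatives were DESeq2 1.42.0, limma-voom (limma 3.58.1), other scalings and filters, and each library left out. Symbols were matched to 32651 IDs. Tests were checked on simulated counts. The markers, lists and ratios were chosen with earlier results of these data known. Besides the markers, genes of a list were named if past the adjusted threshold, otherwise the 3 of largest change whose mean reached 1 CPM, and the 3 genes most like each marker. Vcam1, Cubn, Dab2, Slc5a1, Slc6a18, Scnn1a, Scnn1b and Scnn1g were named outside this rule. Labels do not say which tissues share a mouse. Of the lists, 3 genes (Rhbg, Hbb-bs and Hbb-bt) were not matched. Some genes that the naming rule covers appear only in the count and median of their list, and 1 result is not reported here.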

Additional observations from a re-analysis of the deposited data

Results flagged for a closer look

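Values that lay far from the others of their group, by Dixon's test at its 95% level, were looked for in 52 groups of marker values and found in 7, where chance gives about 1 in 20. In the kidney this was the log2 ratio of Aqp2 to Aqp3 in vehicle library 47, at 0.92 where the next vehicle kidney was at 1.10. All others were traces outside the kidney. In the vehicle brains, Lrp2 stood at 1.40 CPM and Aqp3 at 0.992 CPM in library 28, and Slc12a3 at 0.712 CPM in library 29. In the hearts, Aqp3 stood at 0.579 CPM in Cmpd60 library 68 and at 2.19 CPM in vehicle library 62, and Slc12a1 at 1.02 CPM in vehicle library 63. Library 55 was not past this limit in any of the 9 markers among the Cmpd60 kidneys, although it was the lowest in 8.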

How the results depend on the processing

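No marker passed the adjusted threshold under any of the 19 alternatives, and 166 recomputed log2 fold changes kept their sign. The 14 others were near 0 and belonged to Lrp2 (-0.051 with limma-voom, -0.057 as a mean of log2 CPM, and -0.13 to 0.15 leaving out 1 library), Umod (-0.0045, -0.0061, and -0.046 to 0.11) and Aqp3 (-0.14 to 0.0097, above 0 only without library 55). Over all genes, 429 passed with DESeq2, 389 with quality weights, 94 without a filter, 552 with all 34 aged libraries in 1 fit, and 20 to 131 leaving out 1 library, lowest without vehicle library 46 or 47 and highest without Cmpd60 library 52. Of the list genes (161 tested in the main fit), 5 passed with DESeq2, 6 with quality weights, 7 with all 34 libraries and 2 without a filter. The number was 1 each with limma-voom, DESeq2's size factors, total counts and a filter of at least 10 counts, and 0 to 3 leaving out 1 library. All genes tested numbered 20698 with DESeq2 and with quality weights, 27105 with all 34 libraries and 28551 without a filter. In the 9 segment lists, 4 genes passed as higher and 1 as lower with DESeq2. These numbers were 4 and 2 with quality weights, and 1 and 4 with all 34 libraries. The log2 ratio of Slc12a1 to Slc12a3 ran from -0.51 to -0.37, that of Umod to Slc12a1 from 0.31 to 0.49 and that of Aqp2 to Aqp3 from -0.12 to 0.00071 (without library 50). Correlated pairs were 0 with total counts and 0 to 12 leaving out 1 library. The cause of these shifts was not tested. Each mouse received either Cmpd60 or vehicle, so the groups compared within a tissue were different animals and held no pairs. With 5 and 6 kidneys, the widest interval of a marker, that of Lrp2, still allowed a ratio from 0.742 to 1.37.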
